A study of Mus musculus with 18 samples.

Results

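The genes described here are 10 transcription factors that establish or maintain the regulatory T cell (Treg) lineage, Foxp3, Ikzf1, Ikzf2, Ikzf3, Ikzf4, Satb1, Bach2, Foxo1, Foxo3 and Runx1, taken by name out of 35865 genes that the RNA table lists under a single name. All 10 members passed the filter on low values, as did 15240 genes in all. Transcript levels were measured by bulk RNA-seq in 4 libraries of splenic Tregs, 2 from WT mice and 2 from Chd8-/- mice, and are given as transcripts per 1000000 (TPM), a unit scaled to gene length and to the library total. The question was how these factors differ when CHD8, an ATP-dependent chromatin remodeler, is deleted in Tregs.

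The cells were YFP+ cells sorted by flow cytometry from splenic CD4+ T cells. The WT libraries carry the genotype label CHD8flox/floxFoxp3YFP-Cre/+ and the Chd8-/- libraries the label CHD8Flox/FloxFoxp3YFP-Cre, and every library carries the treatment label Poly IC injection. The Foxp3 promoter drives Cre and YFP in this strain, which directs deletion to Foxp3-expressing cells, and Foxp3 itself is still made. According to the labels both genotypes carry this allele and floxed Chd8. The labels thus differ in the Cre part only, whereas the study describes young, sex-matched WT littermates with wild-type Chd8. Nothing in the labels says whether animals were pooled, and p-values measure the spread between these libraries.

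Foxp3 is the forkhead factor that defines the Treg lineage. It works in complexes with Runx1 and with zinc finger proteins of the Ikaros family, and FOXO factors and the chromatin organizer Satb1 help to switch on its gene in the thymus. Foxo1 also keeps T cells in a resting, recirculating state and is moved out of the nucleus by Akt, and Bach2 restrains effector genes in resting Tregs.

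Chd8, the targeted gene, was listed at 14.9 and 11.4 TPM in the Chd8-/- libraries, compared with 24.7 and 27.6 TPM in the WT libraries. Both Chd8-/- libraries were thus lower, and the transcript was still detected in both. The level matches the group names WT and Chd8-/- in direction. By the genotype labels, YFP+ cells of both groups carried Cre and floxed Chd8. Those labels alone would place deletion in both groups and predict no direction. T cell markers were high in all libraries (summed levels of 2553 to 3155 TPM in Chd8-/- and 3114 to 3143 TPM in WT), as were Treg markers (1751 to 2370 TPM and 1631 to 1733 TPM). Markers of other cells were uneven between libraries, as the plot of marker sums shows. Summed myeloid markers were at 55.2 and 1567 TPM in Chd8-/- against 241.8 and 264.0 TPM in WT, and summed erythroid markers were at 8.5 and 1946 TPM against 384.5 and 351.3 TPM. Chd8-/- replicate 2 therefore stood apart by these sums. Lyz2 made up most of its myeloid sum, at 1360.3 TPM against 77.1 and 60.5 TPM in WT. Against both WT libraries, replicate 2 was higher for 5 of 8 tested myeloid markers and lower for 2, among them Tyrobp (128.4 against 135.2 and 184.5 TPM). It was higher for 4 of 5 erythroid markers and lower for 1, Alas2 (7.5 against 15.0 and 21.5 TPM). Its correlation with the other libraries (0.84 to 0.86 on the log2 scale, across genes) was below that among the other 3 (0.897 to 0.919). B cell markers summed to 43.5 and 144.9 TPM in Chd8-/- and 49.4 and 35.3 TPM in WT, and CD8 T and NK cell markers to 95.8 and 73.4 TPM against 88.9 and 61.2 TPM. The libraries overlapped for 5 of 8 tested myeloid, 4 of 5 erythroid and 5 of 6 B cell markers, and Chd8-/- replicate 1 listed Cd14, Adgre1, Hbb-bs and Pax5 at 0 but had other markers of these cells, such as Lyz2 at 20 TPM, Tyrobp at 29.5 TPM, Alas2 at 8.0 TPM and Cd79a at 17.8 TPM. Their part in the values below was not tested, and values without Chd8-/- replicate 2 are given where a result rests on it. Xist was at 500.2 to 843.3 TPM and the Y-linked genes Ddx3y, Eif2s3y, Kdm5d and Uty were listed at 0 in all 4 libraries, whereas the study names a male and a female mouse for each genotype.

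**Figure D1:**
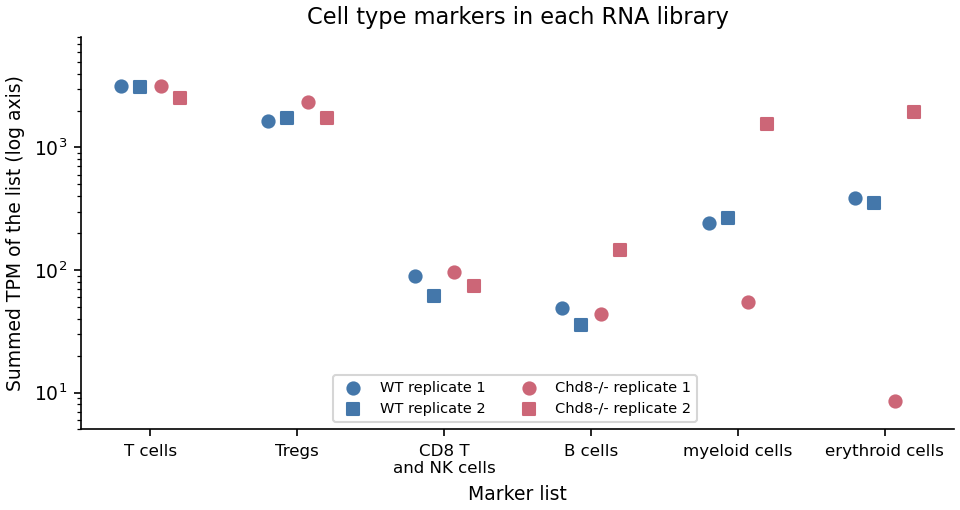
Summed TPM (log axis) of 6 lists of cell type markers in each of the 4 libraries, with WT in blue and Chd8-/- in red. T cell sums overlap between the genotypes. Treg sums are higher in both Chd8-/- libraries (1751 to 2370 against 1631 to 1733 TPM), by little in replicate 2. Of the 5 Treg markers, 3 overlap between the genotypes and 2 are higher in both Chd8-/- libraries. Chd8-/- replicate 2 has the highest myeloid and erythroid sums (1567 and 1946 TPM) and Chd8-/- replicate 1 the lowest (55.2 and 8.5 TPM).

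In outline, Foxo1 and Bach2 were lower in both Chd8-/- libraries, by 0.86 and 1.41 on the log2 scale of TPM + 1, while Foxp3 overlapped between the genotypes (0.06). Satb1 was higher in both Chd8-/- libraries by 0.55 on the same scale. The Ikaros family members, Foxo3 and Runx1 differed by 0.07 to 0.37 on the log2 scale, each with an interval that includes 0. No member passed an adjusted p of 0.05 in limma's moderated test, and 2 of 10, Foxo1 and Bach2, had an unadjusted p below 0.05. Over all genes tested the same test called 0.0% at an adjusted p of 0.05 and 10.2% at an unadjusted p of 0.05 (595 genes higher and 960 lower in Chd8-/-), and the smallest adjusted p was 0.0807. With 2 libraries in each genotype, the smallest two-sided p that exact permutation allows for a single gene is 0.333.

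Both Chd8-/- libraries were below both WT libraries for 6 members (Ikzf1, Ikzf4, Bach2, Foxo1, Foxo3 and Runx1) and above both for 1 (Satb1), while the libraries overlapped for 3 (Foxp3, Ikzf2 and Ikzf3). Of all genes tested, 42.6% had libraries that did not overlap, 27.8% with Chd8-/- below and 14.8% with Chd8-/- above WT. The median log2 fold change was -0.24 over the members and -0.15 over all genes. Setting the libraries to equal medians moved the median of all genes to 0.03, and then 2 members were below WT (Bach2 and Foxo1) and 2 above (Satb1 and Foxp3), against 43.9% of all genes that did not overlap. Relative to the median of all genes, the log2 fold changes of Ikzf1, Ikzf4, Runx1 and Foxo3 were -0.09, -0.09, -0.11 and -0.22. Without Chd8-/- replicate 2, 7 members were below and 3 above both WT libraries, where 71.2% of all genes did not overlap.

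**Figure D2:**
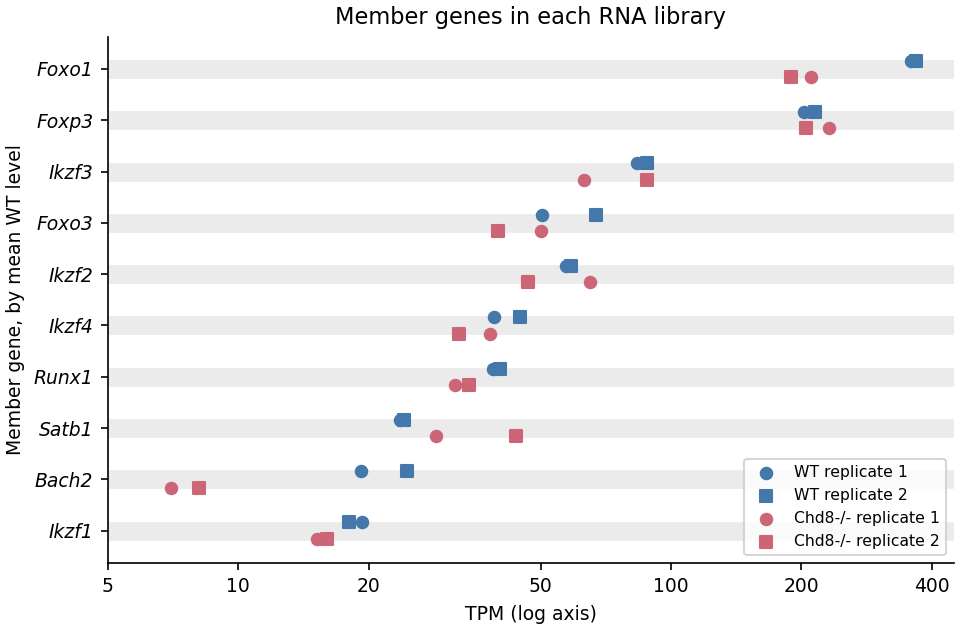
TPM (log axis) of the 10 member genes, ordered by mean WT level, in 2 WT libraries (blue) and 2 Chd8-/- libraries (red). Foxo1 (189.3 to 210.8 against 357.8 to 368.8 TPM) and Bach2 (7.0 to 8.1 against 19.2 to 24.6 TPM) have widely separated groups, while Foxp3, Ikzf2 and Ikzf3 overlap.

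Foxp3 (Gene ID 20371, GRCm38 chrX:7579676-7595243, plus strand) was listed at 232.1 and 205.3 TPM in the Chd8-/- libraries, compared with 202.8 and 215.4 TPM in the WT libraries. The groups overlapped, with Chd8-/- replicate 1 the highest of the 4. The mean level was 218.7 ± 19.0 TPM in Chd8-/- and 209.1 ± 8.91 TPM in WT (SD, n = 2 each). The log2 fold change was 0.06 ± 0.17 (SE), with a 95% interval of -0.40 to 0.52 and a limma adjusted p of 0.919, and its sign turned with quantile normalization and without Chd8-/- replicate 1. A difference of 1 log2 unit in either direction was thus outside the interval. In bulk RNA, a lower or higher share of Foxp3+ cells and a different amount of transcript per cell cannot be told apart. Foxp3 shares 590 exon bases with Ccdc22 on the opposite strand and 267 with the long noncoding RNA Flicr on the same strand, and the strand setting of the counting was not given in the sources used here, so reads on these bases cannot be told apart.

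One of the 2 Foxp3 promoters that RefSeq annotates (GRCm38.p6, chrX:7579426-7579725, plus strand) is shown because it holds letters of the core bound by Ikaros factors, TGGGAA, read on the opposite strand and marked in capitals 3 bases after the start site. The core was searched on both strands in windows from 250 bases before to 50 bases after each start, and was present in 25.6% of all 32851 promoters.
Foxp3 promoter: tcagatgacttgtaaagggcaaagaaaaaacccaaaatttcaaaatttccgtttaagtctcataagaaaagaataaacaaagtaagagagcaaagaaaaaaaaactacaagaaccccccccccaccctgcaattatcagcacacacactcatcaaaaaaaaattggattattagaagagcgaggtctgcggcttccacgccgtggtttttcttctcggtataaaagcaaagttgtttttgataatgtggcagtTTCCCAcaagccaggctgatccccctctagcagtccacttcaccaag

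Foxo1 (Gene ID 56458, chr3:52268337-52350109, plus strand) was the most abundant member in WT Tregs, above 97.9% of all genes tested. It was listed at 210.8 and 189.3 TPM in the Chd8-/- libraries, compared with 357.8 and 368.8 TPM in the WT libraries. The highest Chd8-/- library was well below the lowest WT library, and replicates of a genotype differed by far less than the genotypes did. The mean was 200.1 ± 15.2 TPM in Chd8-/- and 363.3 ± 7.78 TPM in WT (SD, n = 2 each), a ratio of 0.551. On the log2 scale the fold change was -0.86 ± 0.16 (SE; 95% interval -1.30 to -0.42; limma adjusted p = 0.402). Relative to the median of all genes it was -0.71, and 14.9% of all genes had a lower fold change. It was -0.78 without Chd8-/- replicate 2 and between -0.94 and -0.68 over 14 alternatives, in which the adjusted p ranged from 0.204 to 0.971.

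The order of Foxo1 and Foxp3 was exchanged between the genotypes. Foxo1 was the first and Foxp3 the second most abundant member in both WT libraries, and Foxp3 the first and Foxo1 the second in both Chd8-/- libraries. In Chd8-/- the lead of Foxp3 was small, and its range (205.3 to 232.1 TPM) overlapped that of Foxo1 (189.3 to 210.8 TPM). The ratio of Foxo1 to Foxp3 TPM within a library, which does not depend on the scaling of the library, was 0.908 and 0.922 in Chd8-/- and 1.76 and 1.71 in WT.

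Foxo3 (Gene ID 56484, chr10:42181845-42276695, minus strand), the other FOXO member, was listed at 50 and 39.9 TPM in the Chd8-/- libraries, compared with 50.3 and 66.9 TPM in the WT libraries. Chd8-/- replicate 1 and WT replicate 1 were nearly equal, so the groups were apart by little. The log2 fold change was -0.37 ± 0.27 (SE; 95% interval -1.09 to 0.35; limma adjusted p = 0.677). It was -0.21 without Chd8-/- replicate 2, -0.17 without WT replicate 2 and -0.57 without WT replicate 1. Foxo4, another family gene that is not a member, was at 24.9 and 30.5 TPM in Chd8-/- against 38.8 and 39.2 TPM in WT, and Foxo6 was at 0.1 to 0.3 TPM in all libraries. Summed FOXO transcripts were 286.0 and 260.0 TPM in Chd8-/- and 447.1 and 475.0 TPM in WT, so the family total was lower in both Chd8-/- libraries. Foxo1 made up 73.7% and 72.8% of the sum in Chd8-/- and 80.0% and 77.6% in WT, and thus remained the main FOXO transcript in every library. The ratio of Foxo1 to Foxo3 was 4.22 and 4.74 in Chd8-/- and 7.11 and 5.51 in WT.

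Bach2 (Gene ID 12014, chr4:32238413-32586109, plus strand), a BTB and leucine zipper repressor, was listed at 7.0 and 8.1 TPM in the Chd8-/- libraries, compared with 19.2 and 24.6 TPM in the WT libraries. It had the largest difference among the members and was the only one with a log2 fold change of 1 or more in size, which 11.6% of all genes reached in the lower direction and 5.12% in the higher direction. The mean was 7.55 ± 0.778 TPM in Chd8-/- and 21.9 ± 3.82 TPM in WT (SD, n = 2 each), a ratio of 0.345. The log2 fold change was -1.41 ± 0.32 (SE; 95% interval -2.26 to -0.57; limma adjusted p = 0.408), and 6.35% of all genes had a lower one. It was -1.26 relative to the median of all genes and -1.51 without Chd8-/- replicate 2. Over 14 alternatives it ranged from -1.59 to -1.09, with adjusted p from 0.212 to 0.971. Bach2 was the least abundant member in both Chd8-/- libraries and in WT replicate 1, in which Ikzf1 was at nearly the same level. Per Foxp3 transcript its level was 0.0302 and 0.0395 in Chd8-/- and 0.0947 and 0.114 in WT. The antisense gene Bach2os shares 504 exon bases with Bach2 and was also lower in Chd8-/-, at 18.5 and 10.6 against 28.5 and 52.3 TPM, so reads on those bases cannot be assigned to either strand here.

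The promoters of Foxo1 and Bach2 are shown because these are the members with the largest differences, and the letters differ strongly in base composition. Capitals mark CpG dinucleotides, of which Foxo1 has 31 and Bach2 has 7 in 300 bases, against a median of 7 over all RefSeq promoters. The GC content was 61.3% for Foxo1 and 50.3% for Bach2, with a median of 52.7% over all promoters. Both windows are from RefSeq on GRCm38.p6, chr3:52268087-52268386 and chr4:32417185-32417484, both on the plus strand, and the Bach2 window lies inside its gene record, at the start of its single curated mRNA.
Foxo1 promoter: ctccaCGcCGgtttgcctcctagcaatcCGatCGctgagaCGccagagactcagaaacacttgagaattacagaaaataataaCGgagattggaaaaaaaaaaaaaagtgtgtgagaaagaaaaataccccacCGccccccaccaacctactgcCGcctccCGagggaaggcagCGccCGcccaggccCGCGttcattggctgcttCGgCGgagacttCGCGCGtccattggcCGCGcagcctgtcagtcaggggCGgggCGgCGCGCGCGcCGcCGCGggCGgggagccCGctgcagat
Bach2 promoter: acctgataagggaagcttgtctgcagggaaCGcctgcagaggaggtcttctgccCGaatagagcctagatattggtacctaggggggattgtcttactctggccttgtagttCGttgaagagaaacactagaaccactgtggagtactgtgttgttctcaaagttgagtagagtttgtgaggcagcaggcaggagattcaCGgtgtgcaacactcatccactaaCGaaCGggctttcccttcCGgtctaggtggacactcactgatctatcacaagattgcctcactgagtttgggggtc
Neither window holds the forkhead core GTAAACA, the RUNX core TGTGGT or the Ikaros core TGGGAA on either strand. RefSeq promoters were at hand for 7 members with 14 start sites, none of which held the forkhead core (3.65% of all promoters). The RUNX core was in 1 of the 14 (16.8% of all promoters) and the Ikaros core in 3 of the 14, from Satb1 and Foxp3. These matches describe the letters only. No sequence was given for Ikzf2, Ikzf3 and Ikzf4.

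Satb1 (Gene ID 20230, chr17:51736187-51833290, minus strand), a chromatin organizer whose repression is part of the Foxp3 program in mature Tregs, was listed at 28.6 and 43.8 TPM in the Chd8-/- libraries, compared with 23.6 and 24.2 TPM in the WT libraries. It was the only member above WT in both Chd8-/- libraries with the deposited scaling. The Chd8-/- replicates were far apart and the WT replicates close together. The log2 fold change was 0.55 ± 0.31 (SE; 95% interval -0.28 to 1.37; limma adjusted p = 0.603). Replicate 2, which also had the high myeloid and erythroid sums, carried most of this value, since it was 0.25 without that library and 0.85 without Chd8-/- replicate 1. Per Foxp3 transcript, Satb1 was at 0.123 and 0.213 in Chd8-/- and 0.116 and 0.112 in WT.

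Ikzf2, which encodes Helios, a factor that stabilizes the Treg phenotype, was listed at 65.0 and 46.7 TPM in the Chd8-/- libraries, compared with 57.2 and 58.7 TPM in the WT libraries (Gene ID 22779, chr1:69531207-69687351, minus strand). One Chd8-/- library was above and the other below both WT libraries. The log2 fold change was -0.07 ± 0.25 (SE; 95% interval -0.75 to 0.61; limma adjusted p = 0.943), and its sign turned with equal medians and without Chd8-/- replicate 2.

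Ikzf4, which encodes Eos, a Foxp3 partner in gene silencing, was listed at 38.2 and 32.3 TPM in Chd8-/-, compared with 38.9 and 44.7 TPM in WT (Gene ID 22781, chr10:128630839-128669671, minus strand). The groups were apart by less than the spread within either of them. Its log2 fold change was -0.24 ± 0.24 (SE; 95% interval -0.88 to 0.40; limma adjusted p = 0.759), and it was -0.12 without Chd8-/- replicate 2, -0.14 without WT replicate 2 and -0.36 without Chd8-/- replicate 1. Ikzf1, which encodes the founding member Ikaros, was at 15.2 and 16.0 TPM in Chd8-/-, compared with 19.3 and 18.0 TPM in WT (Gene ID 22778, chr11:11684962-11772930, plus strand). Both Chd8-/- libraries were lower by a small margin, with a log2 fold change of -0.24 ± 0.27 (SE; 95% interval -0.96 to 0.48; limma adjusted p = 0.784).

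Ikzf3, which encodes Aiolos, was listed at 63.0 and 88.0 TPM in Chd8-/-, compared with 83.3 and 87.9 TPM in WT (Gene ID 22780, chr11:98464610-98546031, minus strand). The Chd8-/- replicates spanned the WT values, and the log2 fold change was -0.20 ± 0.25 (SE; 95% interval -0.86 to 0.46; limma adjusted p = 0.809), with the sign turned without Chd8-/- replicate 1. Ikzf5, the remaining family gene, was at 24.1 and 9.8 TPM against 24.7 and 19.4 TPM. Summed over the 5 genes, Ikaros family transcripts were 205.5 and 192.8 TPM in Chd8-/- and 223.4 and 228.7 TPM in WT. Ikzf3 and Ikzf2 together with Ikzf4 made up most of this sum in each library, with Ikzf3 at 30.7% and 45.6% in Chd8-/- and 37.3% and 38.4% in WT.

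Runx1 (Gene ID 12394, chr16:92601466-92826074, minus strand), which binds DNA with its partner CBFβ and with Foxp3, was listed at 31.6 and 34.1 TPM in Chd8-/-, compared with 38.8 and 40.2 TPM in WT. Both Chd8-/- libraries were lower, and the log2 fold change was -0.26 ± 0.22 (SE; 95% interval -0.86 to 0.34; limma adjusted p = 0.721). Runx3 was at 23.4 and 43.3 TPM against 19.3 and 36.2 TPM, with replicate 2 the higher in both genotypes. Runx2 was at 4.2 and 5.4 TPM against 3.4 and 3.0 TPM, and the common partner Cbfb at 50.3 and 38.3 TPM against 50.9 and 43.8 TPM. The summed RUNX level, 59.2 and 82.8 TPM in Chd8-/- and 61.5 and 79.4 TPM in WT, overlapped between the genotypes. One of the 2 Runx1 promoters (RefSeq, GRCm38.p6, chr16:92826025-92826324, minus strand) is shown because it alone among the 14 promoters searched holds the RUNX core. Capitals mark its 2 matches, which lie on the opposite strand 28 and 36 bases after the start site.
Runx1 promoter: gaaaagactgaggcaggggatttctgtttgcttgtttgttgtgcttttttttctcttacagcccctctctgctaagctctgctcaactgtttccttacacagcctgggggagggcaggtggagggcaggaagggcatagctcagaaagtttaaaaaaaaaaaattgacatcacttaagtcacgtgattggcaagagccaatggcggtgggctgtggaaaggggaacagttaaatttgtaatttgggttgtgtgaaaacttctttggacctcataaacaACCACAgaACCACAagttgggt

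**Figure D3:**
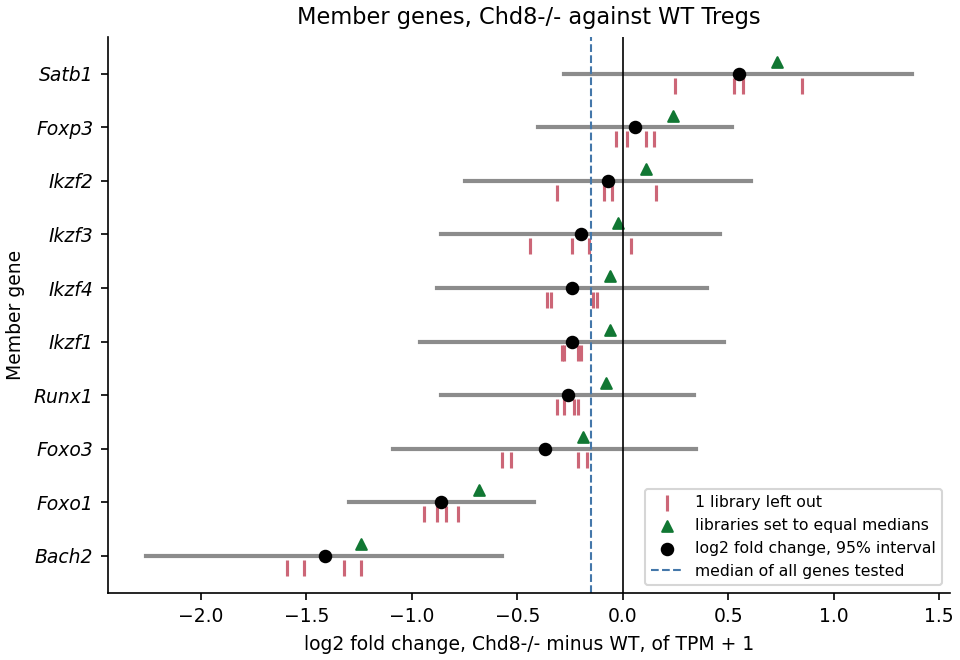
Log2 fold change of each member (Chd8-/- minus WT, log2 of TPM + 1) with its 95% limma interval (grey), values with 1 library left out (red ticks), the value with libraries set to equal medians (green triangles) and the median of all genes tested (dashed line, -0.15). The intervals of Foxo1 and Bach2 lie below 0, and all other intervals include 0.

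In WT Tregs the members ranged from Ikzf1 (mean 18.65 TPM) to Foxo1 (mean 363.3 TPM). The order of mean levels was Foxo1, Foxp3, Ikzf3, Foxo3, Ikzf2, Ikzf4, Runx1, Satb1, Bach2 and Ikzf1. The WT ranges overlapped for neighbours Foxo3 and Ikzf2, for Ikzf4 and Runx1, for Satb1 and Bach2 and for Bach2 and Ikzf1, so these neighbours did not differ beyond their spread. Foxp3 itself was above 95.9% of all genes tested.

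Among 11 paralogs and partners of the members, 8 were tested, of which 3 were below and 1 above WT in both Chd8-/- libraries, shares near the 27.8% and 14.8% of all genes. Foxp1, a forkhead factor needed for T cell quiescence, was at 5.4 and 5.3 TPM in Chd8-/- against 13.9 and 13.3 TPM in WT, a log2 fold change of -1.20 (limma adjusted p = 0.433). Bach1, the heme-binding paralog of Bach2, was at 5.3 and 2.5 TPM against 9.9 and 8.9 TPM, a log2 fold change of -1.15 (limma adjusted p = 0.503). For both genes the highest Chd8-/- library was below the lowest WT library. Foxp4 was at 7.1 and 10.9 TPM against 10.0 and 10.1 TPM, and Foxp2 was at 0.1 TPM or less in every library.

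Genes that Foxp3 is known to raise in Tregs, a list of 21 that includes Ikzf2 and Ikzf4, were above WT in both Chd8-/- libraries for 13, below for 1 (Ikzf4) and overlapping for 7, with a median log2 fold change of 0.51 against -0.15 over all genes. Over all genes tested, 14.8% were above and 27.8% below. None passed an adjusted p of 0.05 in limma, and 9 had an unadjusted p below 0.05, all higher, against 10.2% of all genes in either direction. Itgae, the integrin αE chain that binds epithelial E-cadherin, was at 120.4 and 99.2 TPM against 23.0 and 26.8 TPM. Ebi3, a subunit of IL-27 and IL-35, was at 143.6 and 172.3 TPM against 29.3 and 46.8 TPM. Capg, an actin-capping protein, was at 87.7 and 161.1 TPM against 42.2 and 41.3 TPM, and the costimulatory receptor Icos was at 254.0 and 212.5 TPM against 110.0 and 110.3 TPM. Without Chd8-/- replicate 2 the median was 0.54, and 19 of the 21 were above both WT libraries, where 32.5% of all genes were above. Without Chd8-/- replicate 1 the median was 0.5, with 13 above and 7 below both WT libraries. Of all genes, 28.0% were then above and 52.7% below. Several of these genes are also effector Treg genes, and Foxp3 itself overlapped between the genotypes.

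Of 8 genes that Foxp3 is known to repress, among them Satb1, 7 were tested (median log2 fold change 0.55). Of these, 4 were above and 1 below WT in both Chd8-/- libraries, against 14.8% and 27.8% of all genes. Il7r, the IL-7 receptor chain, was at 504.5 and 366.8 TPM in Chd8-/- against 149.7 and 126.7 TPM in WT, a log2 fold change of 1.64. Il4, a type 2 cytokine, was at 7.6 and 1.9 TPM in Chd8-/-, against a listed 0 and 0.3 TPM in WT. Both lists around Foxp3 were thus mostly higher, those it raises as well as those it represses.

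Of 34 Foxp3 partners and regulators of the Foxp3 locus, 15 were below and 5 above WT in both Chd8-/- libraries. Shares over all genes were 27.8% and 14.8%. The median was -0.17, near that of all genes. With equal medians 9 were below and 9 above, against 20.2% and 23.8% of all genes. Kat5, an acetyltransferase that acts on Foxp3, was at 7.2 and 3.9 TPM against 13.9 and 11.0 TPM. Tet3, a DNA demethylase that keeps the Foxp3 enhancer unmethylated together with Tet2, was at 10.4 and 10.3 TPM against 21.6 and 21.9 TPM. In this list they were the only genes apart by 1 log2 unit, and neither passed the adjusted test.

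Of 17 genes known as Foxo targets, 5 were below and 2 above WT in both Chd8-/- libraries, 10 overlapped, and the median log2 fold change was -0.17, close to the -0.15 of all genes. Sesn1, a stress-induced inhibitor of mTORC1, was at 59.8 and 33.2 TPM against 159.0 and 166.2 TPM (log2 fold change -1.84). The genes above WT in both Chd8-/- libraries were Il7r, which Foxo1 is known to activate, and Ctla4, an inhibitory receptor, at 534.7 and 349.5 TPM against 277.6 and 332.8 TPM. The list median was -0.02 without Chd8-/- replicate 2, where the median of all genes was -0.04.

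Resting Treg genes were a list of 12 that shares Il7r and other genes with the Foxo targets. Of these, 8 were below WT in both Chd8-/- libraries and 1 (Il7r) was above, against 27.8% and 14.8% of all genes. The median log2 fold change was -0.57, and it was also -0.57 without Chd8-/- replicate 2. Id3, an inhibitor of E proteins, was at 51.4 and 16.9 TPM against 193.8 and 151.9 TPM, a log2 fold change of -2.49. Foxp1, given above, was also apart by more than 1 log2 unit in the lower direction. With equal medians 7 of the 12 were below WT and 2 above, against 20.2% and 23.8% of all genes.

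Effector Treg genes, a list of 23 that includes genes which Bach2 is known to repress, split in both directions. In both Chd8-/- libraries 12 were above and 6 below WT, against 14.8% and 27.8% of all genes. The median log2 fold change was 0.34, or 0.16 without Chd8-/- replicate 2. Higher levels were found for Batf, an AP-1 family factor, at 502.4 and 784.6 TPM against 231.1 and 207.1 TPM, and for Bhlhe40 at 155.0 and 131.0 TPM against 47.0 and 52.5 TPM. The chemokine receptor Ccr8 was at 101.1 and 86.2 TPM against 26.8 and 49.4 TPM. Prdm1, which encodes Blimp-1 and is a known target of repression by Bach2, was at 11.4 and 17.6 TPM against 5.3 and 6.6 TPM, and Itgae and Icos, given above, also belong to the genes with higher levels. Gzmb, the cytotoxic protease granzyme B, was lower at 11.7 and 3.1 TPM against 35.6 and 27.6 TPM. Tbx21, which encodes the type 1 helper factor T-bet, was at 2.7 and 1.9 TPM against 12.9 and 5.0 TPM. S100a4, a calcium-binding protein of activated cells, was at 148.9 and 70.6 TPM against 222.4 and 240.4 TPM. None of these genes passed an adjusted p of 0.05 in limma. At an unadjusted limma p of 0.05, 9 of the 23 were higher and 3 lower, against 595 and 960 of all 15240 genes. Whether the effector Treg genes follow from the levels of Foxo1 or Bach2 was not tested.

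**Figure D4:**
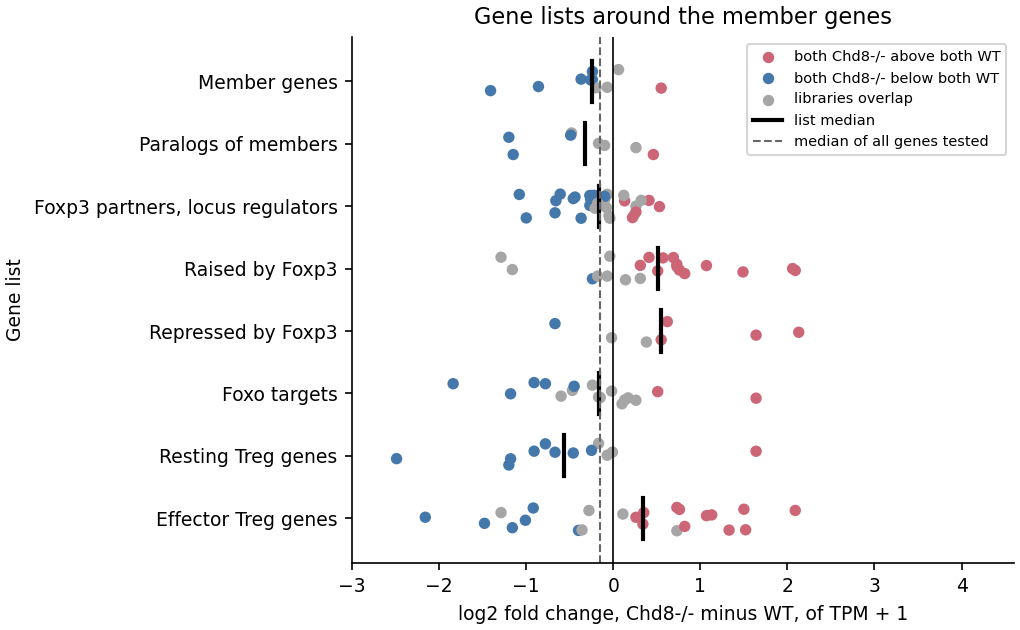
Log2 fold change (Chd8-/- minus WT, log2 of TPM + 1) of each tested gene of 8 lists, colored by whether the libraries of both genotypes overlap, with list medians (black bars) and the median of all genes (dashed line, -0.15). Medians are 0.51 for genes raised by Foxp3, 0.55 for genes repressed by it, -0.57 for resting Treg genes and 0.34 for effector Treg genes.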

How the data were processed

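RNA-seq libraries of 2 WT and 2 Chd8-/- samples were used. The authors trimmed reads with Trim Galore 0.4.2 and cutadapt 1.9.1, aligned them to mm10 with STAR 2.6.1e, removed duplicates, counted reads per RefSeq gene with featureCounts 1.6.2 and deposited TPM values rounded to a decimal, so that counting depth is unknown. The strand setting was not given in the sources used here. In all, 4 entries under repeated names were left out. A pseudocount of 1 TPM was added before taking log2, and the genes kept had at least 1 TPM in at least 2 libraries. The test between genotypes was that of limma 3.58.1, run in R 4.3.3 (moderated test with a mean-variance trend), with Benjamini-Hochberg adjustment over all 15240 genes. Fold changes on this scale understate those of low genes. The code was tested on simulated data. The members and gene lists were chosen with earlier results of these data known. The members and paralogs were named, and of each list the genes whose libraries did not overlap and whose log2 fold change was at least 1 in size, except a few that are not reported here. ATAC-seq and CHIP-seq peaks, given in the mm39 build, were not analysed here, nor were protein sequences. Promoters and loci were from RefSeq on GRCm38.p6, the assembly behind mm10.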

Additional observations from a re-analysis of the deposited data

How the results depend on the processing

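Of the values recomputed under the alternatives, 186 kept their direction and side of the test's threshold (values with no test stayed within 1 SD, and counts within 1.5 times), while 13 moved and 5 reversed. Fold changes kept in this sense could still differ in size. Some values could not move at all. The block, the trend setting and the filters leave the fold change of a member as it is. The amount of TPM added does not alter which libraries overlap. Foxp3 was at -0.03 with quantile normalization, and without 1 library it ranged from -0.03 (without Chd8-/- replicate 1) to 0.15. Ikzf2 was at 0.11 with equal medians and ranged from -0.31 to 0.16 (without Chd8-/- replicate 2), and Ikzf3 ranged from -0.44 to 0.04 (without Chd8-/- replicate 1). Relative to Foxp3 in the same library, an alternative chosen after the data were seen, Ikzf4 was at -0.31 and Foxo1 at -0.93. With equal medians, 2 members were below WT and 2 above, and leaving out 1 library gave 1 to 3 members above. Over all genes, 2 passed an adjusted p of 0.05 when the mean had to be at least 5 TPM, with 1149 genes at a log2 fold change of -1 or less, and with 5 TPM added 362 were at 1 or more and 690 at -1 or less. In the deposited scaling 781 genes were at 1 or more and 1768 at -1 or less, 30.6% of them higher, which became 45.9% with equal medians (1122 and 1323) and 48.2% with quantile normalization (1146 and 1231). Leaving out 1 library gave 989 to 1371 genes at 1 or more and 1446 to 3107 at -1 or less, the highest of each without Chd8-/- replicate 1. The causes of these shifts were not tested. With the replicate number as a block, 1336 genes had an unadjusted p below 0.05 against 1555 without it, no gene passed the adjusted test and the smallest adjusted p was 0.552. The labels give the replicate numbers without saying that same-numbered libraries belong together. Deviations of same-numbered libraries correlated at -0.0117 across 15240 genes. With 2 libraries per genotype this cannot settle whether they shared a batch. No gene passed the adjusted test without the block either. The alternatives for ATAC and CHIP peaks were not run, since no annotation of their build was at hand. Depth is unknown, and 2 libraries per genotype limit the precision.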

Other observations

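Transcripts that neighbour or overlap the members were listed as well. Ccdc22, which overlaps Foxp3 on the opposite strand, was at 27.6 and 20.1 TPM in Chd8-/-, compared with 48.1 and 39.1 TPM in WT, so it was lower in both Chd8-/- libraries while Foxp3 overlapped between the genotypes. Gm38485, inside the Foxo3 locus on the same strand, was at 24.8 and 30.3 TPM against 37.8 and 48.0 TPM. Gm30281, inside the Runx1 locus on the opposite strand, was at 53.4 and 144.8 TPM against 159.9 and 161.7 TPM. Gm26876, which shares 37 exon bases with Ikzf4, was at 8.1 and 58.7 TPM against 0.5 and 12.9 TPM, with overlapping groups. These genes were picked by position and not by their values.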
